A study of Mus musculus with 18 samples.

Results

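The miR-17~92 cluster and its paralogs are a group of short microRNA genes that arose by duplication and are read from long primary transcripts carrying several hairpins each. The group was taken by name and holds 10 of the 2042 miRNA names in the deposited table: mmu-miR-17-5p, mmu-miR-18a-5p, mmu-miR-19a-3p, mmu-miR-20a-5p, mmu-miR-19b-3p, mmu-miR-92a-3p, mmu-miR-106b-5p, mmu-miR-93-5p, mmu-miR-25-3p and mmu-miR-363-3p. The mouse prefix mmu is left out from here on. All 10 names were found, and each had reads in every input library.

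A mature miRNA guides Argonaute to messenger RNAs mainly through its seed, bases 2 to 8 from the 5′ end, and the loaded messenger is repressed. The miR-17~92 transcript is known as a target of MYC and E2F factors and is abundant in dividing cells, and its miRNAs are known to repress cell cycle inhibitors. The shorter miR-106b~25 cluster shares introns with Mcm7, a replication gene.

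The small RNA came from C2C12, a mouse myoblast line that leaves the cell cycle and fuses into myotubes when serum is lowered. The 6 groups of 3 libraries were, from cells after 7 days of myogenic differentiation and from undifferentiated cells, an eluate of an MRTF-A 3'UTR bait, an eluate of an MS2 control and the input RNA. In a miTRAP experiment, short for miRNA trapping by affinity purification of RNA, a bait is tethered to a resin, and small RNAs that stay on it are eluted and sequenced. MRTF-A is myocardin-related transcription factor A, and the MS2 control shows what is recovered without its 3'UTR. The labels give 10% fetal calf serum for growth and 7 days in 2% horse serum as the treatment of every library, the undifferentiated ones included, so the state is taken from the titles and the differentiation label. They name C2C12 cells without a genotype or further agent for any group, give no species or extent of the bait's 3'UTR, and do not state whether replicate libraries were made from different cultures. The spread behind the p-values may therefore be technical.

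The 10 mature sequences, from RefSeq annotation of GRCm38.p6, fall into 4 seed families. They are shown because the whole sequence, not the seed, decides which members can be told apart by sequencing, and some pairs are nearly identical. Capitals mark the seed.
miR-17-5p: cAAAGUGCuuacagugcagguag
miR-20a-5p: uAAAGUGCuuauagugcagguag
miR-93-5p: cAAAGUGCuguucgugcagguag
miR-106b-5p: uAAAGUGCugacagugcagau
miR-18a-5p: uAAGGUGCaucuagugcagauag
miR-19a-3p: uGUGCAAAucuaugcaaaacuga
miR-19b-3p: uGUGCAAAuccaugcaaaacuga
miR-92a-3p: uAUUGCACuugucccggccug
miR-25-3p: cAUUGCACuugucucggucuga
miR-363-3p: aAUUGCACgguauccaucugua
Positions count from 1 at the 5′ end. miR-19b-3p differs from miR-19a-3p by the substitution U11C, and miR-20a-5p differs from miR-17-5p by C1U and C12U.

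The members come from 3 loci of GRCm38. Hairpins of miR-17, miR-18a, miR-19a, miR-20a, miR-19b and miR-92a lie within 836 bases at chr14:115043671-115044506 on the plus strand, in an exon of the long noncoding gene Mir17hg. Hairpins of miR-106b, miR-93 and miR-25 lie within 498 bases at chr5:138165321-138165818 on the minus strand of Mcm7. That of miR-106b is intronic, and those of miR-93 and miR-25 are also covered by an exon of an annotated retained-intron transcript. The X-linked locus at chrX:52741693-52742567, minus strand, spans 875 bases, has no annotated host gene and holds the hairpin of miR-363 with those of miR-106a, miR-18b, miR-20b and second copies of miR-19b and miR-92a. The mature miR-19b-3p and miR-92a-3p of chromosome 14 and of the X chromosome are identical, so their reads cannot be assigned to a locus.

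Reads of the X-linked guide strands other than miR-363-3p were almost absent. Over all 18 libraries miR-106a-5p had 1 read, miR-18b-5p 3 reads and miR-20b-5p 2 reads. miR-106a-5p differs from miR-17-5p by U10A alone, and the sources used here do not give how the authors treated reads that match several miRNAs. The arm opposite miR-92a-3p is particular to each locus by sequence: miR-92a-1-5p of chromosome 14 had 255 reads over all libraries and miR-92a-2-5p of the X chromosome had 1. For miR-19b, the chromosome 14 arm miR-19b-1-5p had 8 reads and the X-linked miR-19b-2-5p had 0.

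Depth differed by kind of library. The bait eluates held 107165 to 544504 reads each, the MS2 control eluates 15562 to 39695 and the inputs 294112 to 860828. A floor of 3 reads corresponded to 35.6 to 103 CPM (the authors' normalised read count, scaled to an effective library size) in the control eluates, so most members lay near the detection limit there. The list of 6 myogenic markers was drawn from general knowledge, but with earlier results of these data known. These markers summed to 48696 to 77883 CPM in the differentiated inputs, against 431 to 3441 CPM in the undifferentiated inputs. In the undifferentiated inputs miR-1a-3p, miR-499-5p and miR-208b-3p had 0 reads. Blood, endothelial, epithelial and embryonic stem cell markers summed to at most 9.39 CPM in any input, and 2 of 6 blood names were not in the table. The 5 neural-linked names summed to 1867 to 2568 CPM in differentiated and 950 to 1552 CPM in undifferentiated inputs, with miR-124-3p at 0 reads in both, and their part in the results was not tested. Libraries are called A, B and C after column suffixes that the labels do not tie to cultures.

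Most of the group was lower in differentiated input RNA. Of the 10 members, 9 fell and miR-363-3p rose in differentiated against undifferentiated inputs (limma on log2(CPM + 10), Benjamini-Hochberg adjusted p under 0.05 over all 313 miRNAs tested). Over all miRNAs tested, 46.3% were lower and 16.0% higher. The median log2 fold change was -1.63 for the members and -0.64 for all miRNAs tested. Values in the 3 differentiated and the 3 undifferentiated libraries did not overlap for any of the 10, with 9 lower and 1 higher. The same held for 48.9% of all miRNAs on the lower side and 17.9% on the higher side. In bulk RNA, fewer cells holding a miRNA and less of it per cell cannot be told apart.

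**Figure D1:**
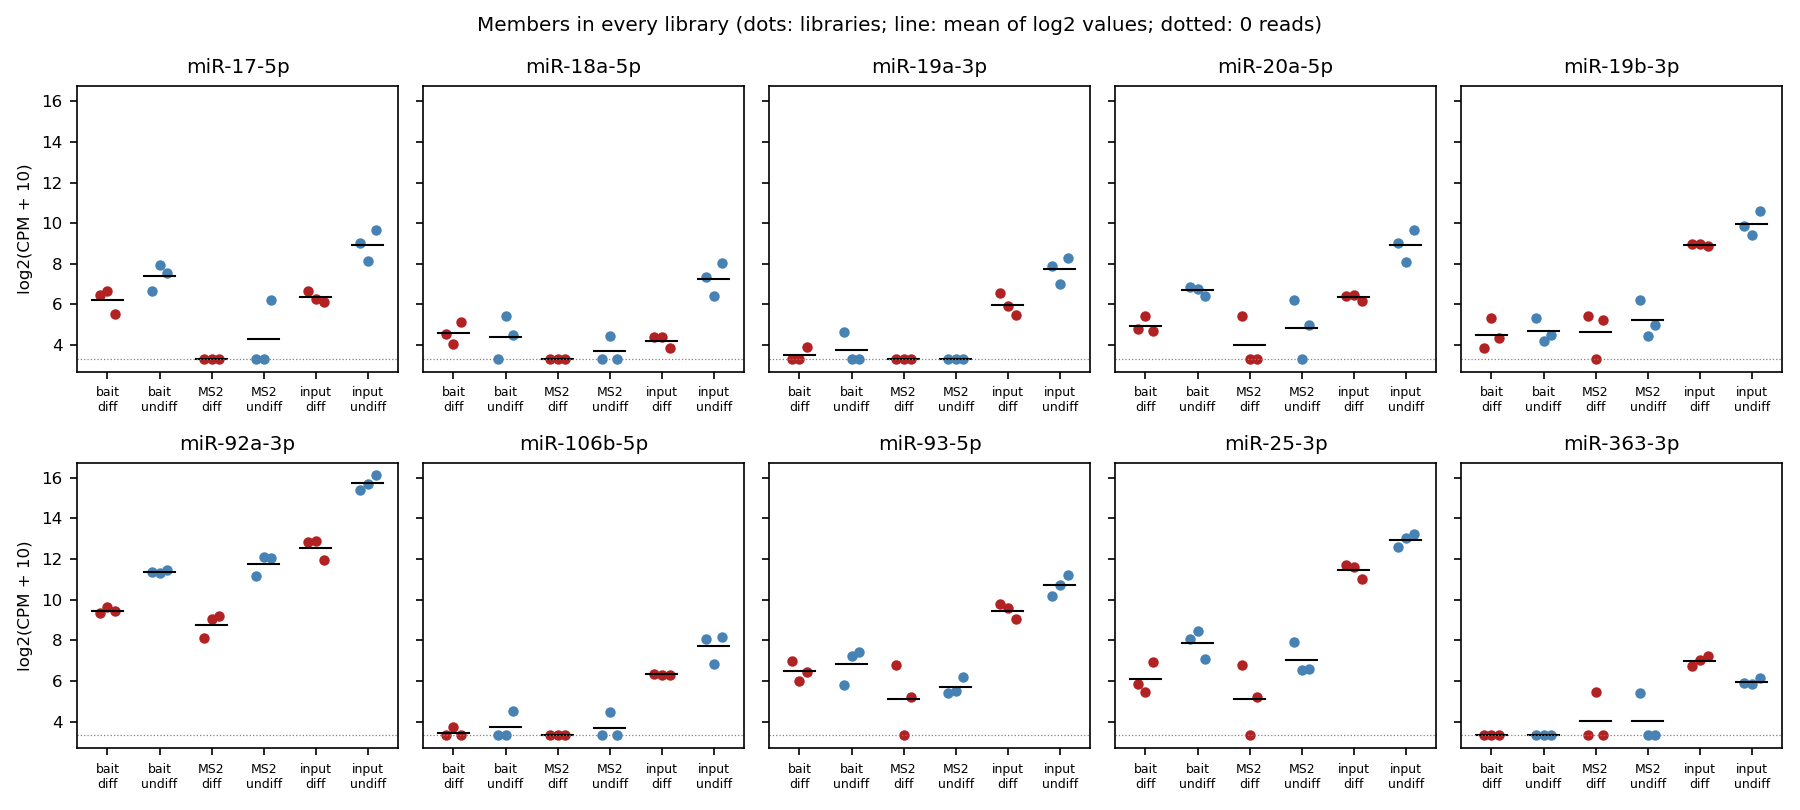
Level of each member in each of the 18 libraries, as log2(CPM + 10), with differentiated (red) left of undifferentiated (blue) in the bait eluates, MS2 control eluates and inputs. Dots are libraries, black lines the mean of the log2 values, and the dotted line the level of 0 reads; in the inputs all members except miR-363-3p are lower in the 3 differentiated libraries.

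The group made up less of the differentiated input. The 10 members together took 1.405 ± 0.31% of the reads of a library in differentiated inputs and 6.21 ± 0.38% in undifferentiated inputs (SD, n = 3 each). These shares ranged from 1.08 to 1.70% in differentiated inputs and from 5.90 to 6.63% in undifferentiated inputs, and they do not depend on the authors' scaling factors.

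The miR-25 seed family, miR-92a-3p, miR-25-3p and miR-363-3p, held the most abundant members. miR-92a-3p, known as the most abundant product of the miR-17~92 transcript in many cell types, had 7349, 7660 and 3916 CPM in differentiated inputs A, B and C, against 42937, 52993 and 71024 CPM in undifferentiated inputs. The highest differentiated library lay far below the lowest undifferentiated one. The log2 fold change was -3.17 ± 0.36 (SE, adjusted p = 1.32e-05, limma).

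miR-25-3p, the miR-25 family member of the Mcm7 cluster, had 3369, 3151 and 2058 CPM in differentiated and 6081, 8519 and 9658 CPM in undifferentiated inputs. It fell by 1.502 ± 0.33 on the log2 scale (SE, adjusted p = 0.00179, limma), and the difference between its change and that of miR-92a-3p was not tested on this scale. miR-363-3p, the X-linked member of the family, went the other way. It had 97.3, 120.2 and 137.6 CPM in differentiated inputs, against 48.7, 47.2 and 59.6 CPM in undifferentiated inputs, a log2 fold change of 1.05 ± 0.32 (SE, adjusted p = 0.0135, limma). It was the only member that was higher in differentiated inputs, and the 3 differentiated libraries lay above all 3 undifferentiated ones.

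The miR-17 seed family, known for repressing the cell cycle inhibitor Cdkn1a, fell in all 4 members, 2 from chromosome 14 and 2 from Mcm7. miR-17-5p had 91.8, 67.6 and 60.2 CPM in differentiated and 517.7, 269.5 and 793.6 CPM in undifferentiated inputs. miR-20a-5p had 75.3, 77.0 and 62.4 CPM in differentiated and 517.7, 261.2 and 800.2 CPM in undifferentiated inputs. All 3 differentiated libraries lay below all 3 undifferentiated ones for each, and both log2 fold changes were -2.58 ± 0.40 (SE, adjusted p = 1.62e-04 for each, limma).

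miR-93-5p had 864.7, 749.7 and 511.9 CPM in differentiated and 1154, 1687 and 2346 CPM in undifferentiated inputs, and fell by 1.25 ± 0.35 on the log2 scale (SE, adjusted p = 0.00816, limma). miR-106b-5p had 71.6, 69.5 and 68.8 CPM in differentiated and 261.9, 105.6 and 276.7 CPM in undifferentiated inputs, and fell by 1.38 ± 0.39 (SE, adjusted p = 0.00843, limma). Both calls were lost with TMM factors of the inputs alone, at -0.57 (adjusted p = 0.123) for miR-93-5p and -0.76 (adjusted p = 0.0707) for miR-106b-5p. They were also lost with DESeq2 and with its size factors in limma, and that of miR-106b-5p with library totals (adjusted p = 0.0511). No test was run of chromosome 14 against Mcm7 members as sets.

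miR-18a-5p, the member of the miR-18 family, was the scarcest in differentiated inputs. It had 11.0, 11.3 and 4.30 CPM there, from 14 reads in all, against 155.3, 75.0 and 255.1 CPM in undifferentiated inputs, from 232 reads. Its log2 fold change was -3.06 ± 0.41 (SE, adjusted p = 4.78e-05, limma), which the pseudocount of 10 makes smaller than the ratio of the means. The miRNA passed the filter through the undifferentiated inputs, where it was high.

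Both members of the miR-19 family fell. miR-19a-3p had 84.5, 50.7 and 34.4 CPM in differentiated and 231.4, 119.5 and 304.8 CPM in undifferentiated inputs, and fell by 1.76 ± 0.42 on the log2 scale (SE, adjusted p = 0.00294, limma). miR-19b-3p had 501.2, 496.0 and 453.8 CPM in differentiated and 919.6, 686.3 and 1552 CPM in undifferentiated inputs, a log2 fold change of -1.03 ± 0.35 (SE, adjusted p = 0.0208, limma). The 3 differentiated libraries of miR-19b-3p lay close together and the undifferentiated ones were spread. Its call was lost without undifferentiated input C, at -0.71 (adjusted p = 0.0778), and without differentiated input A, B or C, at adjusted p between 0.0687 and 0.0697. It was also lost with TMM factors of the inputs (-0.35, adjusted p = 0.287), with DESeq2, with DESeq2's size factors in limma, with library totals and with no filter on low reads.

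The median over all miRNAs tested moves with the scaling, at -0.64 with the deposited factors and -0.06 with TMM factors computed on the inputs. Relative to the deposited median, the members' changes were -2.53 for miR-92a-3p, -2.42 for miR-18a-5p, -1.95 for miR-20a-5p, -1.94 for miR-17-5p and -1.12 for miR-19a-3p. They were -0.86 for miR-25-3p, -0.74 for miR-106b-5p, -0.61 for miR-93-5p, -0.39 for miR-19b-3p and 1.68 for miR-363-3p. No member changed direction under any scaling tried in the inputs. The calls over all miRNAs split into 50 higher and 145 lower with the deposited factors, 90 and 86 with TMM of the inputs, 88 and 88 with DESeq2's size factors in limma, 87 and 91 with DESeq2 and 75 and 100 with library totals. With TMM of the inputs 6 members were lower, where 28.6% of the miRNAs tested were lower and 29.9% higher, and with DESeq2 6 members were lower, where 29.1% were lower and 27.8% higher. The authors' deposited table calls 7 members lower and 0 higher at FDR under 0.05 in this comparison, where 5.73% of its 2042 names are lower, with miR-93-5p, miR-19b-3p and miR-363-3p above that threshold. Of those 2042 names, 438 had no read in any library, while each member had reads in every input library. The 5.73% is thus no like-for-like background for the members.

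**Figure D2:**
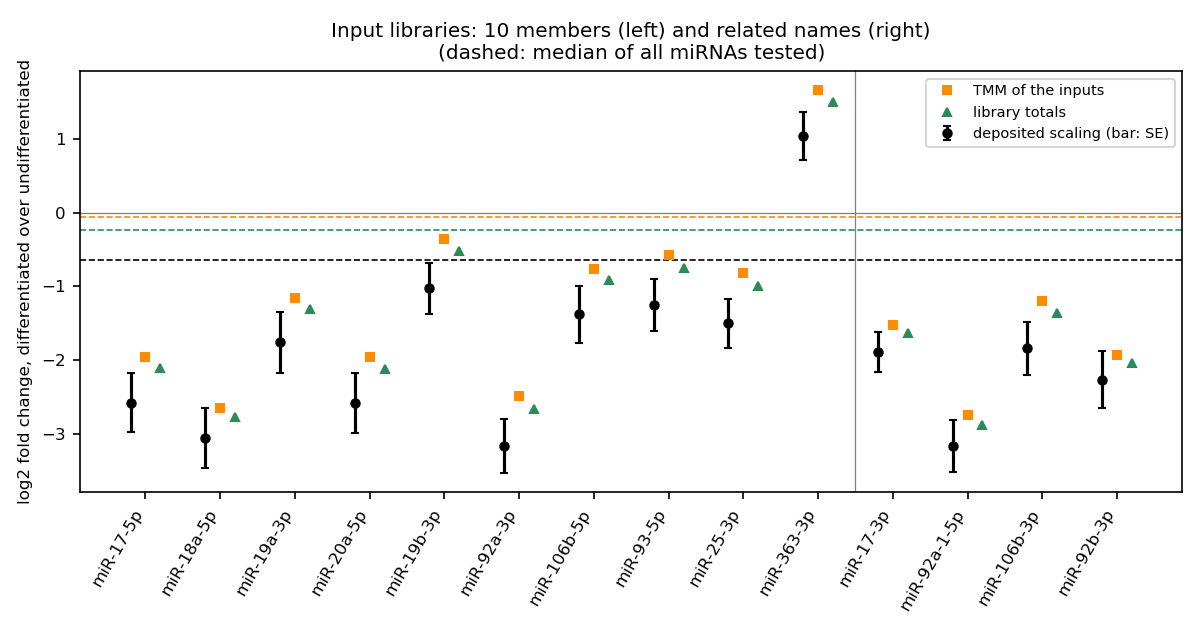
Log2 fold change of each member (left of the vertical line) and of 4 related names (right) in differentiated over undifferentiated inputs, under the deposited scaling with SE bars (black), TMM factors of the inputs (orange) and library totals (green). Dashed lines are the medians of all miRNAs tested, -0.64 with the deposited scaling and -0.06 with TMM; miR-363-3p lies above 0 and the other 9 members below it under all 3.

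The order of levels within the group was similar in both states but its make-up differed. In differentiated inputs the order was miR-92a-3p, miR-25-3p, miR-93-5p, miR-19b-3p and miR-363-3p, each apart from the next in all 3 libraries, followed by miR-17-5p, miR-20a-5p, miR-106b-5p and miR-19a-3p, whose ranges overlapped, and miR-18a-5p. In undifferentiated inputs the order was miR-92a-3p, miR-25-3p, miR-93-5p, miR-19b-3p, miR-17-5p, miR-20a-5p, miR-19a-3p, miR-106b-5p, miR-18a-5p and miR-363-3p. There only miR-92a-3p, miR-25-3p and miR-363-3p were apart from every neighbour. miR-363-3p thus had rank 5 in differentiated and rank 10 in undifferentiated inputs.

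Of the summed CPM of the 10 members, miR-92a-3p made up 57.9 ± 4.02% in differentiated and 81.6 ± 0.27% in undifferentiated inputs (SD, n = 3 each). miR-25-3p made up 26.8 ± 1.43% in differentiated and 11.9 ± 1.09% in undifferentiated inputs, and miR-93-5p 6.64 ± 0.54% in differentiated and 2.49 ± 0.27% in undifferentiated inputs. The share of miR-92a-3p was thus lower, and those of the Mcm7 members miR-25-3p and miR-93-5p were higher, in every differentiated input. The shares are parts of the same sum and so are tied: a lower share of miR-92a-3p raises the others. In CPM miR-25-3p and miR-93-5p fell as well. The third Mcm7 member, miR-106b-5p, made up 0.558 to 0.942% in differentiated and 0.163 to 0.496% in undifferentiated inputs. miR-19b-3p made up 4.73 ± 1.28% in differentiated and 1.53 ± 0.41% in undifferentiated inputs. The miR-17 seed family as a whole made up 8.73 ± 0.94% in differentiated and 4.36 ± 0.67% in undifferentiated inputs, and the miR-25 seed family 85.9 ± 2.11% in differentiated and 93.6 ± 1.30% in undifferentiated inputs. The libraries of the 2 states did not overlap in any of these shares. An exact 2-sided permutation test of 3 against 3 libraries gave p = 0.1 for each, the smallest it allows, and 0.127 after adjustment over 14 shares. The shares of miR-17-5p and miR-20a-5p overlapped between the states (exact permutation p = 0.7 and 0.8).

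**Figure D3:**
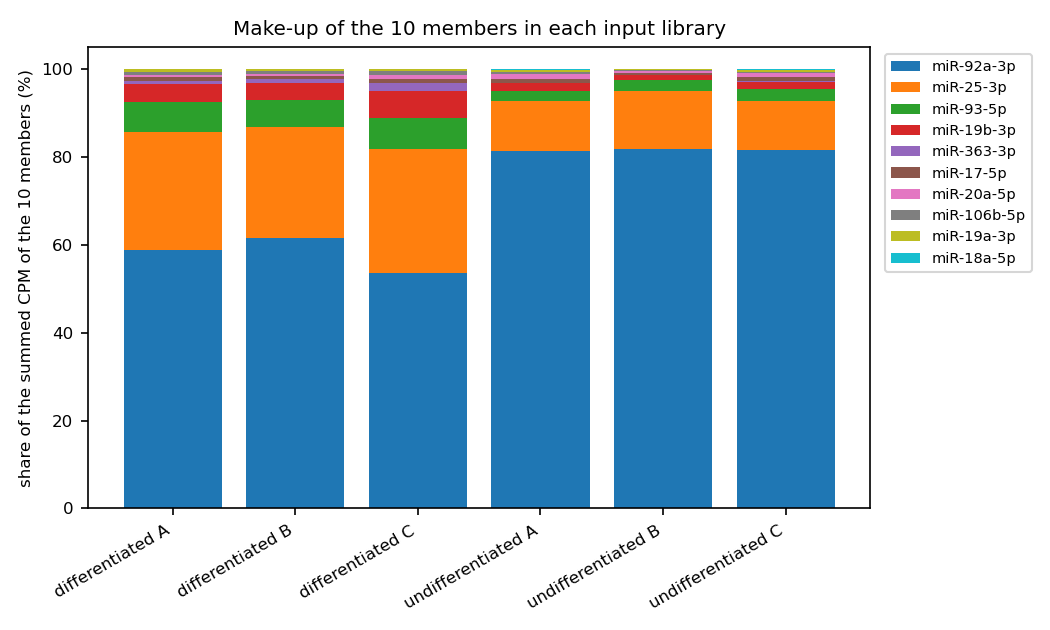
Share of the summed CPM of the 10 members taken by each member, in percent, in the 3 differentiated and the 3 undifferentiated input libraries. miR-92a-3p takes 53.6 to 61.5% in differentiated and 81.3 to 81.8% in undifferentiated inputs, and miR-25-3p takes 25.3 to 28.2% in differentiated and 11.1 to 13.2% in undifferentiated inputs.

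A list of 21 further names of the 3 loci and of their seed relatives was taken along. All 21 were in the table, 3 had no read, and the 5 that reached a mean of 50 CPM in some group were examined. The other arms miR-92a-1-5p (log2 fold change -3.16 ± 0.35, SE, adjusted p = 1.31e-05, limma), miR-17-3p (-1.89 ± 0.27, adjusted p = 8.92e-05) and miR-106b-3p (-1.84 ± 0.36, adjusted p = 7.66e-04) fell in differentiated inputs. miR-92b-3p, which shares the miR-25 seed but lies elsewhere in the genome, had 16.5, 7.52 and 0 CPM in differentiated and 60.9, 52.8 and 106 CPM in undifferentiated inputs, and fell by 2.27 ± 0.38 (SE, adjusted p = 2.85e-04, limma). miR-25-5p had 1 read in differentiated and 70 reads in undifferentiated inputs. That is a ratio of 83.5 in favour of undifferentiated inputs, with an exact 95% counting interval of 14.5 to 3346 on pooled reads.

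Against the input, the members were scarce in the bait eluates. Together they took 0.0508 to 0.0613% of the reads in differentiated bait eluates and 0.115 to 0.195% in undifferentiated ones, below every input library. They took 0.0683 to 0.154% in differentiated and 0.400 to 0.955% in undifferentiated MS2 control eluates. In summed CPM the order in differentiated cells was the reverse, with 916 to 1026 CPM in bait and 531 to 650 CPM in control eluates. In undifferentiated cells the CPM ranges overlapped, at 3204 to 3428 in bait and 2691 to 4525 in control eluates. The order of bait and control thus depends on the scaling. Bait over input, 7 of 10 members were lower in differentiated cells, where 30.8% of the 305 miRNAs tested were lower and 31.1% higher. In undifferentiated cells 10 of 10 were lower, where 45.2% of the 305 were lower and 23.3% higher (limma on all 18 libraries, adjusted p under 0.05). Both counts include miR-363-3p, with 0 bait reads, and miR-19a-3p and miR-106b-5p, with 1 bait read in each state. The fitted sizes of these members depend on the pseudocount. For miR-363-3p in undifferentiated cells the reads bound the decrease at only 1.43-fold or more. The members' median log2 fold change was -2.92 in differentiated and -3.92 in undifferentiated cells, or -3.15 in differentiated and -4.11 in undifferentiated cells with the 3 members of 3 or fewer bait reads set at their read ratio or bound. The median over all tested was -0.14 in differentiated and -1.04 in undifferentiated cells.

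miR-92a-3p had 636.5, 776.3 and 684.0 CPM in differentiated bait eluates, against the 3916 to 7660 CPM of the inputs, a log2 fold change of -3.10 ± 0.35 (SE, adjusted p = 9.27e-07, limma). In undifferentiated cells it had 2652, 2501 and 2848 CPM in the bait eluates, against 42937 to 71024 CPM in the inputs, a log2 fold change of -4.35 ± 0.35 (SE, adjusted p = 1.41e-08, limma). It was the most abundant member in the bait eluates of both states, and bait and input libraries did not overlap.

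miR-25-3p had 48.0, 33.3 and 113.1 CPM in differentiated and 260.6, 340.6 and 126.0 CPM in undifferentiated bait eluates. Its log2 fold change over input was -5.37 ± 0.68 in differentiated and -5.08 ± 0.68 in undifferentiated cells (SE, adjusted p = 2.81e-06 and 5.18e-06, limma). The difference from miR-92a-3p, which has the same seed, was not tested. miR-363-3p, the third member with this seed, had 0 reads in all 6 bait eluates. With 3 reads per library as the floor, it was at least 9.23-fold lower than input in differentiated and at least 1.43-fold lower in undifferentiated bait eluates.

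miR-19b-3p fell to 4.36, 30.0 and 10.3 CPM in differentiated and 30.7, 8.31 and 12.6 CPM in undifferentiated bait eluates. These values rest on 12 reads in differentiated and 4 in undifferentiated bait eluates, and the log2 fold changes over input were -4.44 ± 0.61 in differentiated and -5.29 ± 0.61 in undifferentiated cells (SE, adjusted p = 6.40e-06 and 8.64e-07, limma). miR-19a-3p and miR-106b-5p each had 1 read in the differentiated and 1 in the undifferentiated bait eluates. The ratio of input to bait was 41.8 (exact 95% counting interval 7.31 to 1669) in differentiated and 62.1 (11.1 to 2462) in undifferentiated cells for miR-19a-3p. It was 50.7 (8.91 to 2021) in differentiated and 59.7 (10.6 to 2365) in undifferentiated cells for miR-106b-5p. miR-93-5p had a log2 fold change over input of -2.98 ± 0.67 in differentiated and -3.88 ± 0.67 in undifferentiated cells (SE, adjusted p = 9.25e-04 and 7.93e-05, limma).

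miR-17-5p lay closest to its input. It had 78.5, 90.0 and 36.0 CPM in differentiated bait eluates, against 60.2 to 91.8 CPM in the inputs, and the ranges overlapped, with a log2 fold change of -0.15 ± 0.66 (SE, adjusted p = 0.846, limma). In undifferentiated bait eluates it had 91.99, 232.6 and 176.4 CPM, against 269.5 to 793.6 CPM in the inputs, and a log2 fold change of -1.56 ± 0.66 (SE, adjusted p = 0.0444, limma). That call was lost, at adjusted p between 0.0523 and 0.165, without any 1 of 8 libraries: differentiated inputs A, B and C, undifferentiated inputs A and C, differentiated bait eluate A and undifferentiated bait eluates A and C. It was also lost with DESeq2 (-0.35, adjusted p = 0.586), with DESeq2's size factors in limma (-0.32, adjusted p = 0.757), with a pseudocount of 1 (adjusted p = 0.254) and with no filter on low reads (adjusted p = 0.116).

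miR-20a-5p, 2 bases different from miR-17-5p, had 17.4, 33.3 and 15.4 CPM in differentiated and 107.3, 99.7 and 75.6 CPM in undifferentiated bait eluates. All 6 lay below the inputs of the same state. Its log2 fold change over input was -1.38 ± 0.67 in differentiated cells (SE, adjusted p = 0.0833, limma) and -2.24 ± 0.67 in undifferentiated cells (adjusted p = 0.00736). The value in differentiated cells passed the threshold with edgeR (-1.63, adjusted p = 0.0124), DESeq2 (-1.76, adjusted p = 0.00545) and library totals (-2.23, adjusted p = 0.0178). It also passed in a fit without the MS2 libraries, chosen after seeing the data (adjusted p = 0.00713), and without differentiated MS2 library A (adjusted p = 0.0495) or undifferentiated MS2 library B (adjusted p = 0.0434). The call in undifferentiated cells was lost with DESeq2's size factors in limma (-1.004, adjusted p = 0.318) and with a pseudocount of 1 (adjusted p = 0.161).

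miR-18a-5p had 13.1, 6.66 and 25.7 CPM in differentiated bait eluates, from 10 reads, against 4.30 to 11.3 CPM in the inputs. The log2 fold change was 0.37 ± 0.52 (SE, adjusted p = 0.554, limma), and it was -0.20 with library totals. In undifferentiated bait eluates it had 0, 33.2 and 12.6 CPM, from 5 reads, against 75.0 to 255.1 CPM in the inputs, a log2 fold change of -2.86 ± 0.52 (SE, adjusted p = 1.15e-04, limma) whose call was lost with DESeq2 (-1.94, adjusted p = 0.0748). A test of the difference between the states gave 3.23 ± 0.73 on the log2 scale (SE, adjusted p = 0.00662, limma interaction). It was 1 of 10 members called higher in that interaction, where 16.7% of the 305 miRNAs tested were called higher and 3.61% lower, and the median over all was 0.89. The bait eluates of the 2 states had means of 15.2 ± 9.69 CPM in differentiated and 15.3 ± 16.8 CPM in undifferentiated bait eluates (SD, n = 3 each), and the input level fell. The interaction value is thus mostly the fall in the inputs, -3.06 on the log2 scale, and is no separate result on the bait. The miRNA passed the filter through the undifferentiated inputs, where it was high. Without undifferentiated input A or C the miRNA did not pass the filter and had no value.

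**Figure D4:**
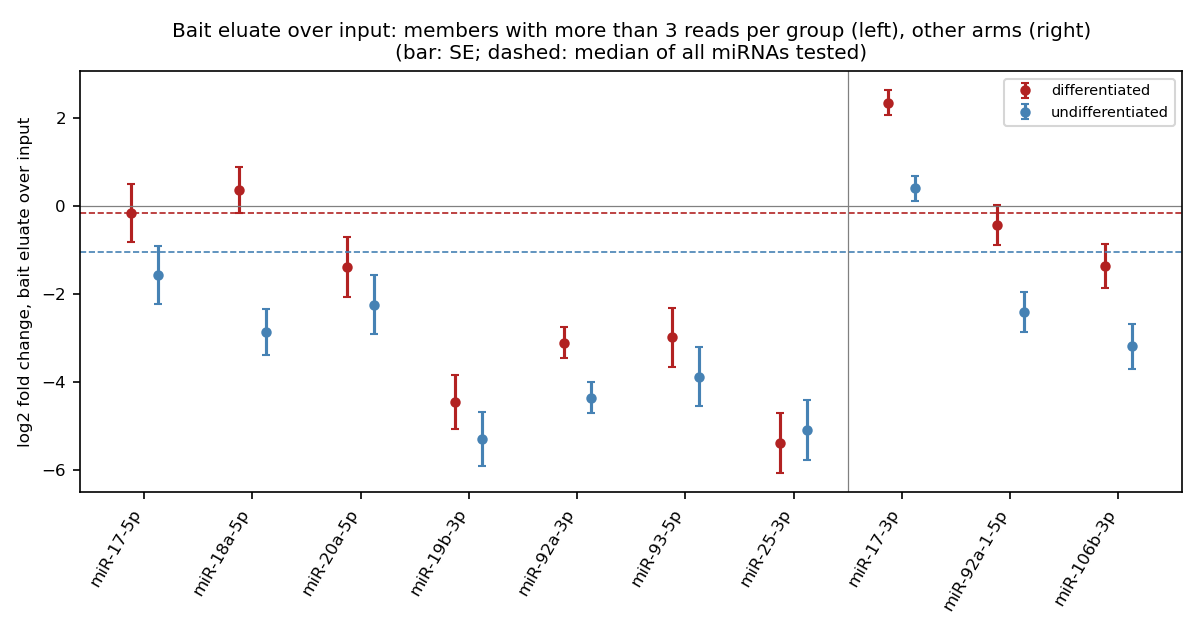
Log2 fold change of bait eluate over input with SE bars, in differentiated (red) and undifferentiated (blue) cells, for the 7 members with more than 3 reads in every group compared (left of the vertical line) and 3 other arms (right). Dashed lines are the medians of all miRNAs tested, -0.14 in differentiated and -1.04 in undifferentiated cells; miR-17-5p and miR-18a-5p lie near 0 in differentiated cells and miR-17-3p above it in both states, though in undifferentiated cells it was -0.35 with library totals.

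The scaling bears on these comparisons, since the factors behind the deposited values were 0.551 to 0.634 in differentiated and 0.341 to 0.609 in undifferentiated bait eluates, against 1.15 to 1.48 in differentiated and 0.701 to 1.12 in undifferentiated inputs. In undifferentiated cells the calls over all miRNAs split into 71 higher and 138 lower with the deposited factors, 112 and 99 with DESeq2, 99 and 88 with its size factors in limma and 54 and 194 with library totals. In differentiated cells they split into 95 higher and 94 lower, and into 73 and 163 with library totals. The interaction calls split into 51 higher and 11 lower, against 9 and 33 with DESeq2, 4 and 20 with its size factors in limma and 14 and 11 with library totals. The count of members lower than input was 7 to 8 in differentiated and 7 to 10 in undifferentiated cells over these and the other alternatives.

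The other arms miR-17-3p, miR-106b-3p, miR-92a-1-5p and miR-25-5p stood higher relative to input in the bait eluates than the members on the same hairpins, a difference that was not tested. miR-17-3p had 91.6, 53.3 and 72.0 CPM in differentiated bait eluates, against 3.67, 5.64 and 8.60 CPM in the inputs, and a log2 fold change of 2.35 ± 0.28 (SE, adjusted p = 1.37e-06, limma). In undifferentiated cells it had 61.3, 66.5 and 75.6 CPM in bait eluates, against 51.8, 44.5 and 49.7 CPM in inputs, and a log2 fold change of 0.41 ± 0.28 (SE, adjusted p = 0.208, limma) that was -0.35 with library totals. With DESeq2 it was called higher there (1.76, adjusted p = 0.00669), as it was with DESeq2's size factors in limma (1.401, adjusted p = 5.89e-04). Bait and input libraries did not overlap in either state, and miR-17-3p had 0 reads in all 6 MS2 control eluates. It is shown for comparison with miR-17-5p.
miR-17-3p: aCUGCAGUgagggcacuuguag
miR-25-5p: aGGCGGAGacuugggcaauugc
miR-106b-3p had 56.7, 43.3 and 41.1 CPM in differentiated bait eluates, against 148.7, 171.0 and 96.8 CPM in inputs, a log2 fold change of -1.36 ± 0.51 (SE, adjusted p = 0.0277, limma) that was lost without differentiated input A or B or differentiated bait eluate B or C (adjusted p between 0.0683 and 0.0922), with a pseudocount of 1 (adjusted p = 0.198) and with no filter on low reads (adjusted p = 0.0704). It fell by 3.19 ± 0.51 in undifferentiated cells (SE, adjusted p = 3.39e-05, limma). miR-92a-1-5p had a log2 fold change over input of -0.42 ± 0.45 in differentiated cells (SE, adjusted p = 0.425, limma) and -2.40 ± 0.45 in undifferentiated cells (adjusted p = 1.63e-04), a call lost with DESeq2 (-1.56, adjusted p = 0.103). miR-25-5p had 8 reads in differentiated bait eluates and 1 in the inputs, a ratio of 17.04 with a counting interval of 2.28 to 756. In undifferentiated cells it had 91.99, 182.8 and 126.0 CPM in bait eluates, against 33.5, 72.2 and 54.7 CPM in inputs, and a log2 fold change of 1.18 ± 0.68 (SE, adjusted p = 0.136, limma). It was called higher there with DESeq2 (2.67, adjusted p = 2.54e-05), with DESeq2's size factors in limma (2.198, adjusted p = 0.0190), with a pseudocount of 50 (adjusted p = 0.0449) and without the MS2 libraries (adjusted p = 0.0276).

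As a share of a hairpin's own reads, miR-17-3p made up 49.5% of the Mir17 reads in differentiated bait eluates (exact 95% interval 39.5 to 59.5%, 51 of 103 reads), against 7.32% in the inputs (9 of 123 reads). In undifferentiated cells it made up 27.3% in bait eluates (18 of 66 reads) and 7.79% in inputs (63 of 809 reads). The share of miR-20a-3p among the Mir20a reads was 43.3% in bait eluates and 3.48% in inputs of differentiated cells, and 28.6% in bait eluates and 1.84% in inputs of undifferentiated cells. miR-106b-3p made up 97.1% of Mir106b reads in bait eluates and 66.8% in inputs of differentiated cells, and 92.9% in bait eluates and 71.1% in inputs of undifferentiated cells. The other arm was already the larger share of this hairpin in the inputs. miR-25-5p made up 15.7% of Mir25 reads in bait eluates and 0.0224% in inputs of differentiated cells, and 35.8% in bait eluates and 0.639% in inputs of undifferentiated cells. In the MS2 control eluates miR-25-5p made up 42.9% of 7 reads in differentiated and 41.9% of 31 reads in undifferentiated cells. These 4 hairpins were chosen after their values were seen, no test was run, and the intervals cover counting error only, since reads without molecular identifiers are not independent molecules. For Mir93, no read of the other arm was found among 58 differentiated and 33 undifferentiated bait reads, which leaves an upper exact limit of 6.16% in differentiated and 10.6% in undifferentiated cells. For Mir18 the other arm, miR-18a-3p, had 0 of 10 reads in differentiated bait eluates, against 2 of 16 in inputs, and 7 of 12 in undifferentiated bait eluates, against 24 of 256 in inputs. Set against all miR-92a-3p reads, which cannot be assigned to a locus, the chromosome 14 arm miR-92a-1-5p made up 0.967% in differentiated bait eluates, against 0.141% in inputs, and 0.850% in undifferentiated bait eluates, against 0.299% in inputs. A higher share of the other arm in bait eluates was not seen for Mir93, or for Mir18 in differentiated cells. Bait reads there were too few to tell a higher share from an equal one. The Mir93 shares in inputs, 0.180% in differentiated and 0.373% in undifferentiated cells, lie below those upper limits. For Mir18 in differentiated cells the upper exact limit is 30.8%, against 12.5% in inputs.

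**Figure D5:**
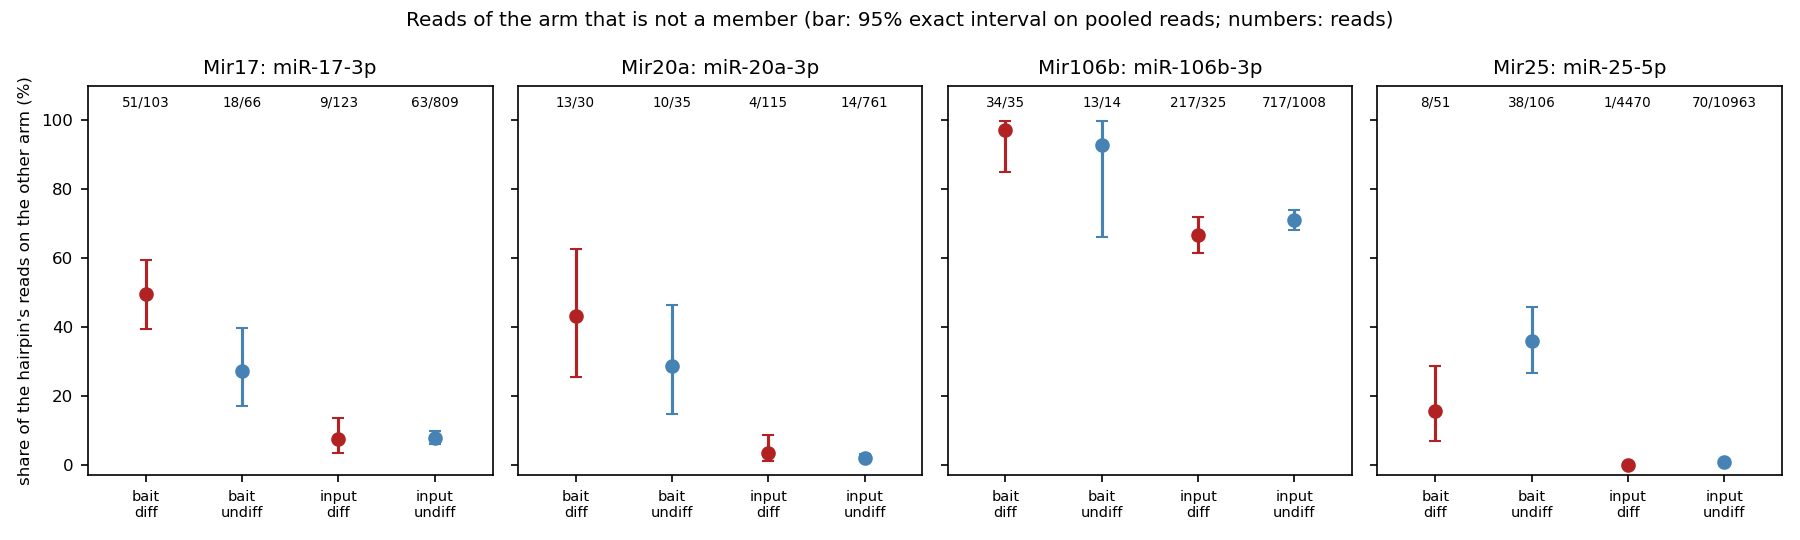
Share of a hairpin's reads that lie on the arm opposite the member, in percent, in bait eluates and inputs of differentiated (red) and undifferentiated (blue) cells, with exact 95% intervals on pooled reads and the reads printed above. The share is higher in bait eluates than in inputs of the same state for all 4 hairpins drawn, for example 49.5% against 7.32% for miR-17-3p in differentiated cells.

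Recovery with the bait was set against the MS2 control, the comparison that asks what the 3'UTR adds. Only miR-92a-3p and miR-25-3p passed the filter on low reads in the eluates, and neither was called in either state. Of the 169 miRNAs tested, 57.4% were higher and 21.9% lower with the bait in differentiated cells, and 43.2% higher and 17.2% lower in undifferentiated cells. Neither member had an unadjusted p under 0.05 in limma. With DESeq2 0 members were called in differentiated cells and miR-92a-3p was called lower in undifferentiated cells, and with edgeR 0 were called in either.

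miR-92a-3p had 636.5, 776.3 and 684.0 CPM in differentiated bait eluates, against 265.7, 515.0 and 568.7 CPM in differentiated MS2 eluates. All 3 bait values were above all 3 control values, and the log2 fold change was 0.69 ± 0.35 (SE, adjusted p = 0.0844, limma), though it was -0.13 with DESeq2 and -0.73 with library totals. The call was gained without differentiated MS2 library C (0.89, adjusted p = 0.0496). In undifferentiated cells the bait eluates had 2652, 2501 and 2848 CPM, against 2264, 4344 and 4269 CPM in the MS2 eluates. These ranges overlapped, and the log2 fold change was -0.38 ± 0.35 (SE, adjusted p = 0.342, limma), or -0.90 with DESeq2 (adjusted p = 0.00958) and -2.27 with library totals (adjusted p = 0.00229). The MS2 libraries fell into 2 kinds by the share of reads under names with the human prefix in the deposited table, 0.0900 to 0.115% in differentiated C and undifferentiated B and C, and 0.755 to 0.930% in the other 3. miR-92a-3p was higher in the kind with the lower share within each state, and the part of this in the comparison was not tested. The inputs differed in this share too, with 0.221% in differentiated C and 0.106% in undifferentiated A, against 0.00941 to 0.0212% in the others. Differentiated input C and undifferentiated input A had the lowest miR-92a-3p of their state, and the part of this was not tested either.

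miR-25-3p had 48.0, 33.3 and 113.1 CPM with the bait and 99.6, 0 and 27.1 CPM with the MS2 control in differentiated cells. The log2 fold change was 0.98 ± 0.81 (SE, adjusted p = 0.284, limma), -0.22 with DESeq2 and -0.11 with library totals, and the call was gained without differentiated MS2 library A (1.81, adjusted p = 0.0459). In undifferentiated cells it had 260.6, 340.6 and 126.0 CPM with the bait and 229.7, 83.1 and 85.4 CPM with the control, and a log2 fold change of 0.87 ± 0.81 (SE, adjusted p = 0.359, limma), or -0.91 with library totals. The control values rest on 4 reads in differentiated and 18 reads in undifferentiated cells. The interaction of bait with differentiation was called for neither member (8.28% of the 169 were higher and 4.73% lower).

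miR-17-5p did not pass the filter in the eluates, where it had few control reads. It had 52 reads in differentiated bait eluates and 0 in the MS2 control, where the bait level of 68.1 ± 28.4 CPM (SD, n = 3) lay under the floor of 81.2 to 103 CPM of the control libraries, so no fold is given. In undifferentiated cells it had 48 reads with the bait and 3 with the control, a ratio of 9.76 (exact 95% counting interval 3.14 to 49.0). With no filter on low reads limma called it higher with the bait in differentiated (adjusted p = 0.00676) and undifferentiated cells (adjusted p = 0.00528), but with 0 to 3 control reads the size of the fitted change is set by the pseudocount and is not given. In the authors' deposited table it is the only member called with the bait over the control. Its log2 fold change there is 6.26 (FDR 0.0461) in differentiated cells, a fitted value against 0 control reads and no bound. In undifferentiated cells it is 3.02 (FDR 0.0229). Of the 2042 names in that table, 5.29% in differentiated and 4.51% in undifferentiated cells are called higher. These names include 438 with no read in any library, so the shares are no like-for-like background. The other arm miR-17-3p, not a member, is called higher there too (FDR 0.0270 in differentiated and 0.00730 in undifferentiated cells), against 0 control reads. miR-20a-5p had 25 reads with the bait and 3 with the control in undifferentiated cells, a ratio of 5.08 (1.55 to 26.3). In differentiated cells it had 17 reads with the bait and 1 with the control, a ratio of 2.26 (0.354 to 94.4). With no filter on low reads limma called it in neither state (adjusted p = 0.154 in undifferentiated and 0.444 in differentiated cells). The intervals cover counting error only, not the spread between libraries.

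The members were also scarce in the MS2 control eluates. MS2 control over input, 9 of 10 members were lower in differentiated cells, where 53.8% of all tested were lower and 15.4% higher, and 10 of 10 in undifferentiated cells, where 62.6% were lower and 8.52% higher. In differentiated cells 7 of the 10 members had 3 or fewer control reads, and in undifferentiated cells 6 had. miR-17-5p, miR-19a-3p and miR-106b-5p are among the 9 but had 0 control reads in differentiated cells, with input levels at or under the control floor, so their fitted values are set by the pseudocount. With DESeq2 the count in differentiated cells was 4. The log2 fold change of miR-92a-3p was -3.79 ± 0.35 in differentiated and -3.97 ± 0.35 in undifferentiated cells (SE, adjusted p = 1.85e-07 and 6.54e-08, limma). That of miR-25-3p was -6.35 ± 0.68 in differentiated and -5.95 ± 0.68 in undifferentiated cells (SE, adjusted p = 9.21e-07 and 1.01e-06, limma). This comparison shares its inputs with that of bait over input.

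Within the bait eluates, the decrease of miR-92a-3p with differentiation was present as in the inputs. The 636.5 to 776.3 CPM of differentiated bait eluates lay below the 2501 to 2848 CPM of undifferentiated ones, with a log2 fold change of -1.92 ± 0.35 (SE, adjusted p = 8.28e-04, limma). miR-25-3p also lay lower in all 3 differentiated bait eluates, with -1.79 ± 0.81 (SE, adjusted p = 0.0967, limma), a value that passed the threshold with edgeR (adjusted p = 0.0153), DESeq2 (-2.41, adjusted p = 0.00544), a pseudocount of 50 (adjusted p = 0.0307) and without differentiated MS2 library B (adjusted p = 0.0408). Of the 2 members tested 1 was thus called lower, where 14.8% of the 169 miRNAs were lower and 23.7% higher.

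Perfect matches to the members' seeds were looked for in the longest annotated mouse Mrtfa 3'UTR, which is 1004 bases long in GENCODE vM21 and may differ from the bait. The sense-strand letters GCACTTT for the miR-17 family, GCACCTT for miR-18, TTTGCAC for miR-19 and GTGCAAT for the miR-25 family each had 0 matches there. Of 10218 windows of the same length from annotated 3'UTRs, that of Mrtfa included, 9.46% held the letters of the miR-17 family, 5.73% those of miR-18, 9.70% those of miR-19 and 4.53% those of the miR-25 family. A missing match says only that these letters are not in that window.

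The names whose profile was most like the mean of the 10 members were described by Pearson's r of log2(CPM + 10). Over the 6 inputs these were miR-151-5p (0.994), miR-1983 (0.994), let-7b-3p (0.992), miR-125b-5p (0.991) and miR-31-3p (0.988), of 361 names ranked. Over all 18 libraries they were miR-221-3p (0.969), miR-1957a (0.960), miR-31-3p (0.957), miR-15b-3p (0.956) and miR-186-5p (0.956), of 369 names. The points share libraries, depth and scaling. Among the members, miR-18a-5p had the highest r with the mean profile over the inputs, 0.997, and miR-363-3p the lowest, -0.88. The others lay from 0.923 (miR-93-5p) to 0.994 (miR-17-5p). The mean holds each member's own values, so the r of a member is partly set in advance.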

How the data were processed

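Small RNA of 18 C2C12 libraries (50 bp reads) was analysed. Per the submitters' processing notes, the authors' tools were edgeR 3.18.1, featureCounts 1.4.6, Bowtie2 2.0.13 and cutadapt 1.4.2, with the build GRCm38/mm10. The deposited signal is a normalised count (CPM) per miRNA and library. Every value was a whole multiple of 1 read's worth (100% within 0.01 read), so whole reads were recovered for the filter, the alternatives and the read ratios. The log2 fold changes and p-values of the authors' deposited table are named as such where used.

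limma 3.58.1 (R 4.3.3) was fitted with a trend on log2(CPM + 10), 10 being the pseudocount, after edgeR's filterByExpr on recovered reads, with Benjamini-Hochberg adjustment over all miRNAs of a fit and a threshold of 0.05. The 6 inputs, the 12 eluates and all 18 libraries were the 3 fits. The planned test for raw counts was not the main one because the table holds a normalised signal. DESeq2 1.42.0 and edgeR 4.0.16, both run on the recovered reads, other pseudocounts (1 and 50), other factors and left-out libraries were alternatives. Scripts were tested on simulated data. All members were named, and of 21 related names those with at least 50 CPM in a group mean. The members and lists were chosen with earlier results of these data known. No replicate pair was within sampling noise. The labels tie no column suffix to a culture. Deviations from the group means correlated over 0.1 in each of the 3 same-suffix pairs between differentiated bait and MS2 control eluates (0.122 to 0.213), between differentiated and undifferentiated bait eluates (0.158 to 0.178) and between differentiated bait eluates and inputs (0.133 to 0.402), so the suffix was taken to pair these. It did not between the inputs of the 2 states (-0.19 to 0.14) or in the other comparisons. Pairs of unlike suffix between differentiated bait eluates and inputs reached 0.254, so pairing is not established there. In the fit of all 18 libraries the same-suffix values between the bait eluates of the 2 states were only 0.043 to 0.071. The fits have no block, and a block by suffix was an alternative.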

Additional observations from a re-analysis of the deposited data

Results flagged for a closer look

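For 3 names the bait-over-input difference itself differed between differentiated and undifferentiated cells by a limma interaction test (Benjamini-Hochberg adjusted p under 0.05 over 305 miRNAs). The value was 3.23 for miR-18a-5p (adjusted p = 0.00662), 1.98 for miR-92a-1-5p (adjusted p = 0.0398) and 1.94 for miR-17-3p (adjusted p = 0.00318), all on the log2 scale. The median over all miRNAs tested was 0.89, and relative to it the values were 2.33, 1.09 and 1.05. The value of miR-18a-5p is mostly its fall in the inputs, since its bait eluates had means of 15.2 CPM in differentiated and 15.3 CPM in undifferentiated cells. The value of miR-17-3p is likewise mostly its fall in the inputs, -1.89 on the log2 scale. Bait eluates had means of 72.3 CPM of miR-17-3p in differentiated and 67.8 CPM in undifferentiated cells. The call of miR-18a-5p rests on 10 reads in differentiated and 5 in undifferentiated bait eluates, and it was lost with a pseudocount of 1 (adjusted p = 0.0899) and with DESeq2 (adjusted p = 0.219). With DESeq2's size factors in limma miR-18a-5p did not pass the filter and had no value. That of miR-92a-1-5p was lost without any 1 of 8 libraries (differentiated inputs A and C, undifferentiated inputs A and C, differentiated bait eluate B and undifferentiated bait eluates A, B and C) and with 5 other settings, and rests on 5 reads of 1 library in differentiated bait eluates. That of miR-17-3p was lost with DESeq2 (adjusted p = 0.219) and with DESeq2's size factors in limma (adjusted p = 0.305).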

How the results depend on the processing

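In the inputs 6 to 9 members were lower and 1 higher under every alternative run, with 6 lower under DESeq2, its size factors in limma and TMM. Over both bait-over-input comparisons the members lower stayed within 1.5 times of the reported count. For bait over MS2 control, 1 member was lower in undifferentiated cells with DESeq2 and with library totals, and 1 was higher in each state with no filter on low reads. Leaving out 1 library gave 0 to 1 higher in undifferentiated and 0 to 3 higher in differentiated cells, with up to 4 members passing the filter. Bait eluates had 2 members lower in differentiated cells with a pseudocount of 50, edgeR and DESeq2, and 1 to 2 with a library left out. The interaction of bait over input with differentiation called 0 members higher with a pseudocount of 1, DESeq2 and DESeq2's size factors, 3 with a pseudocount of 50, 2 when fitted without the MS2 libraries (an alternative chosen after seeing the data), and 0 to 2 with a library left out. It called 1 lower with DESeq2 and without the MS2 libraries. MS2 control over input had 4 members lower in differentiated cells with DESeq2. The cause was not tested for any of these.

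Signs turned for miR-92a-3p bait over MS2 control in differentiated cells (-0.13 with DESeq2, -0.73 with library totals), for miR-25-3p there (-0.22 and -0.11) and in undifferentiated cells (-0.91 with library totals). Bait over input, they turned for miR-17-3p in undifferentiated cells (-0.35 with library totals), and in differentiated cells for miR-18a-5p (-0.20 with library totals) and for miR-17-5p with a library left out (-0.37 to 0.19).

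A replicate block by suffix left 9 members lower in the inputs, 7 in differentiated and 10 in undifferentiated bait over input, and changed no call reported. The 15562 to 39695 reads of the control eluates limit what can be said of 8 members there.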

Other observations

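miR-32-5p and miR-367-3p, the remaining mouse names of the miR-25 seed family examined, were near the detection limit, with 25 and 2 reads over all 18 libraries. miR-32-5p had 3.67, 7.52 and 8.60 CPM in differentiated and 6.09, 2.78 and 19.9 CPM in undifferentiated inputs, which overlap, and 0 reads in every eluate. miR-92b-3p, with 132 reads in all, was present in some libraries of every group, so of the seed relatives it alone was read in all 6 groups.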
